A study of Mus musculus with 12 samples.

Results

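The enzymes that build and remodel glycerophospholipids, the main lipids of cell membranes, were followed in RNA-Seq of cerebellum and cerebral cortex. The group holds 37 of the 55536 genes counted, taken by name as the genes for synthesis of phosphatidylcholine (PC), phosphatidylethanolamine (PE), phosphatidylserine (PS), phosphatidylinositol (PI) and cardiolipin and for the exchange of their acyl chains, not by a threshold on a measured value. The libraries came from 1-month-old C57BL/6J mice, 3 WT and 3 *Snx14*-KO, and each mouse gave a cerebellum and a cortex, so there were 12 libraries and 3 in each of 4 groups (WT cerebellum, *Snx14*-KO cerebellum, WT cortex and *Snx14*-KO cortex). *Snx14* encodes a sorting nexin that takes part in lipid transport between organelles. The KO is a full-body one, a CRISPR-made frameshift deletion in *Snx14* from 1 line that was backcrossed to the same strain, so the deletion is not limited to a cell type or tissue, and no group was treated. The labels give the cell type as a mix. The study used this age as a stage before neurons are lost, and the comparisons ask whether the transcripts of the phospholipid enzymes differ between the tissues and with the loss of *Snx14*.

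PC and PE are made in the Kennedy pathway, in which choline or ethanolamine is phosphorylated by a kinase, activated with CTP by a cytidylyl-transferase and joined to diacylglycerol by a phosphotransferase. PE also comes from PS by decarboxylation in mitochondria, and PS is made from PC or PE by base exchange. PI and cardiolipin start from CDP-diacylglycerol instead. Once made, a phospholipid can lose an acyl chain to a phospholipase A2 and regain another from a lysophospholipid acyltransferase, the cycle that sets which fatty acids a membrane holds.

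The libraries held 16672589 to 19887427 counts on genes. Levels of 1 gene across libraries are given as CPM, counts scaled to a common library size with TMM normalization factors, and levels of different genes as TPM, transcripts scaled to a common total after division by gene length. Errors are the SD over the 3 libraries of a group. *Snx14* was at 63.8, 63.5 and 66.9 CPM in WT cerebella and at 10.4, 10.9 and 11.2 CPM in *Snx14*-KO cerebella, and at 53.5, 55.0 and 59.8 CPM against 8.49, 7.95 and 7.68 CPM in cortex, so the genotype labels hold in all 12 libraries. Past the thresholds given below, all 10 Purkinje cell genes and 9 of 10 granule cell genes were higher in WT cerebellum than in WT cortex, the exception being *Slc17a7*, which cortical neurons also use. All 10 cortical neuron genes lay on the lower side, 9 of them past the thresholds. The summed level of the cortical neuron genes was 212 to 481 CPM per cerebellum and 5101 to 6149 CPM per cortex. Because the tissues are mixtures of cells, fewer cells of a type and less RNA per cell cannot be told apart in any value below.

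All 37 genes were detected in all 12 libraries and passed the filter on low counts in every comparison. Their mean levels spanned from 2.02 TPM (*Etnk2*) to 380 TPM (*Gde1*) in WT cerebellum and from 1.49 TPM (*Mboat1*) to 456 TPM (*Gde1*) in WT cortex. *Gde1*, a glycerophosphodiesterase, *Cds2*, which makes CDP-diacylglycerol, and *Cdipt*, the PI synthase, held the highest 3 places in all 4 groups. Of the exon bases of *Gde1*, 13.5% are shared with *Gm45236* on the opposite strand, and the counting ignored strand. *Etnk2*, *Pemt*, *Pla2g4a*, *Tamm41* and *Mboat1* held the lowest 5 places in all 4 groups, each with a mean under 6 TPM. Counting error weighs most on these low genes: *Mboat1*, for example, had 26 to 77 read pairs per library.

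**Figure D1:**
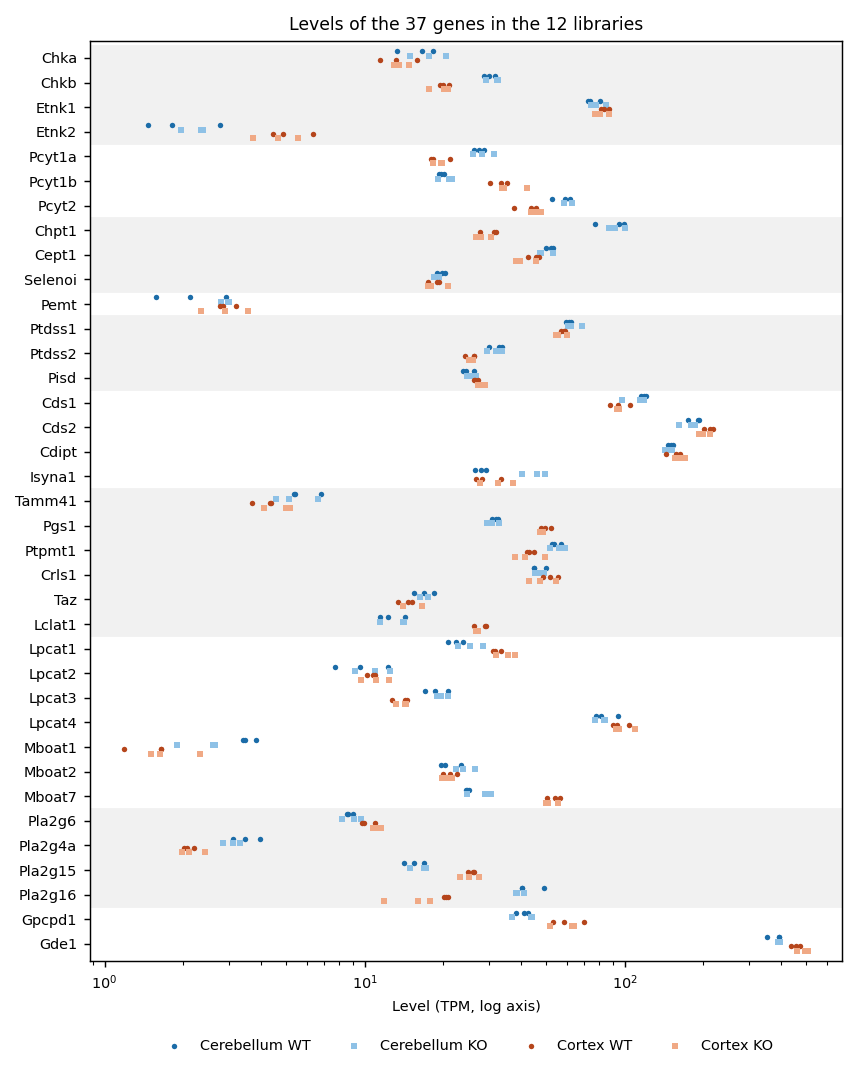
Level of each gene in TPM (log axis) in each of the 12 libraries, with genes in rows ordered by their role and shading to separate the roles; circles are WT and squares *Snx14*-KO libraries. The 3 highest genes are *Gde1*, *Cds2* and *Cdipt* in every group, and *Etnk2*, *Chpt1*, *Pcyt1b*, *Lclat1*, *Mboat7* and *Pla2g16* separate by tissue.

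Between WT cerebellum and WT cortex, 13 of the 37 genes differed past both thresholds, an adjusted p below 0.05 and a log2 fold change beyond 0.5 in size, 5 of them higher and 8 lower in cerebellum. Of all 18543 genes tested, 19.0% were higher and 21.4% lower by the same rule, so the count of members is close to that of genes in general, and what follows describes which of them differ. The median log2 fold change of the members was -0.11, beside 0.023 over all genes tested. P-values come from the quasi-likelihood test of edgeR, adjusted over all genes tested by the Benjamini-Hochberg method, and are written as edgeR adjusted p.

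Among the Kennedy pathway kinases, the main transcripts were *Etnk1*, an ethanolamine kinase, at 75.3 ± 4.45 TPM in WT cerebellum and 84.0 ± 2.92 TPM in WT cortex (SD, n = 3 each), and the choline kinases *Chkb* and *Chka* at lower levels. *Etnk2*, the other ethanolamine kinase, was at 2.06, 3.92 and 2.41 CPM in WT cerebella and at 6.79, 6.49 and 9.27 CPM in WT cortices. The groups did not overlap, and *Etnk2* was lower in cerebellum by 1.42 on the log2 scale (log2 fold change -1.42, SE 0.26, edgeR adjusted p = 0.00076). *Chkb* was at 28.3, 27.2 and 28.4 CPM in WT cerebella and 19.9, 19.7 and 19.2 CPM in WT cortices. All cerebella lay above all cortices, with a log2 fold change of 0.52 (SE 0.082, edgeR adjusted p = 0.00032), which drops under the size threshold without WT cortex replicate 3 (0.49). Of the exon bases of *Chkb*, 57.6% are also exon bases of other genes, mainly the readthrough model *Gm44502* on the same strand, so this count is shared. *Etnk1* had a log2 fold change of -0.22 (SE 0.058, edgeR adjusted p = 0.0081), under the size threshold, and *Chka* one of 0.19 (SE 0.12, edgeR adjusted p = 0.22) with overlapping groups.

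The cytidylyl-transferases catalyse the rate-limiting step of the pathway, and the PC enzyme is encoded by *Pcyt1a* (chromosome 16 from 32430921 to 32475070, plus strand) and *Pcyt1b* (chromosome X from 93654863 to 93749951, plus strand). *Pcyt1b* was at 33.2, 32.0 and 30.7 CPM in WT cerebella and 55.0, 60.6 and 52.1 CPM in WT cortices. *Pcyt1a* was at 65.4, 60.1 and 59.3 CPM in WT cerebella and 48.6, 42.7 and 43.7 CPM in WT cortices. The isoforms thus differed in opposite directions and neither overlapped between tissues. *Pcyt1b* was lower in cerebellum (log2 fold change -0.80, SE 0.080, edgeR adjusted p = 1.0e-05), while *Pcyt1a* had a log2 fold change of 0.46 (SE 0.077, edgeR adjusted p = 0.00048), which misses the size threshold. *Pcyt2*, the PE enzyme of this step, had one of 0.39 (SE 0.087, edgeR adjusted p = 0.0028), with 57.8 ± 4.55 TPM in WT cerebellum and 42.2 ± 4.16 TPM in WT cortex (SD, n = 3 each).

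The promoter windows of these isoform genes and of *Chpt1* are shown because these genes carry the largest shifts between paired enzymes of the pathway. Each window, from RefSeq on GRCm38.p6, runs from 250 bases before to 50 bases after an annotated start on the gene's strand, and capitals mark matches on either strand to the CCAAT box, to the GC box (letters GGGCGG) or to a sterol regulatory element core (letters TCACNCCAC). The windows are chr16:32430671-32430970 (plus strand) for *Pcyt1a*, chrX:93654613-93654912 and chrX:93674862-93675161 (plus strand) for the 2 starts of *Pcyt1b*, and chr10:88503921-88504220 (minus strand) for *Chpt1*.
Pcyt1a, window 1 of 3: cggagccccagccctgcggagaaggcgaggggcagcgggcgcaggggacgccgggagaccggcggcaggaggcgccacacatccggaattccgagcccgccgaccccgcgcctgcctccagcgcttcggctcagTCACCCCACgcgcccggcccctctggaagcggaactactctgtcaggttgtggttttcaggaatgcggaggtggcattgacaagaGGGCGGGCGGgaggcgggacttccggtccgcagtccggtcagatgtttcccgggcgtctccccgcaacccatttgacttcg
Pcyt1b, window 1 of 2: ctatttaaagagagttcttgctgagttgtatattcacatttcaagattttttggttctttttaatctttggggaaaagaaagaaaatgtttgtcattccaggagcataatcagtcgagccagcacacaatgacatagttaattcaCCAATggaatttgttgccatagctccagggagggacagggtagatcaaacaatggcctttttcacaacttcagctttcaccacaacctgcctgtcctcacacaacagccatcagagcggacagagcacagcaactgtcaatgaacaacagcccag
Pcyt1b, window 2 of 2: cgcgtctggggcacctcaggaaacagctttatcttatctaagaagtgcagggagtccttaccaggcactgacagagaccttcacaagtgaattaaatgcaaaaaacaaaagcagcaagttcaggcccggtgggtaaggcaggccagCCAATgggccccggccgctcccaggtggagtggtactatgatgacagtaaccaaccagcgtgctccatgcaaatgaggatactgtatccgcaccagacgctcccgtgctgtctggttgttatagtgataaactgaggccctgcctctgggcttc
Chpt1: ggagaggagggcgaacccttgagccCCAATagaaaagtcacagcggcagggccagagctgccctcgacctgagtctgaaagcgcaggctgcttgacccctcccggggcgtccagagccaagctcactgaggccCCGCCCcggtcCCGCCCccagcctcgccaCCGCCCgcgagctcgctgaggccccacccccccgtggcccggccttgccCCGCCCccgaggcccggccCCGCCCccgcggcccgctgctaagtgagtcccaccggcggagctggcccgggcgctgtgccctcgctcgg

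These windows differ in composition. GC content was 69.7% in the *Pcyt1a* window shown and 75.3% in that of *Chpt1*, but 42.0% and 53.3% in those of *Pcyt1b*, against a median of 52.7% over all 32841 windows. The number of CpG dinucleotides was 33 and 29 in *Pcyt1a* and *Chpt1*, and 2 and 9 in *Pcyt1b*. The *Chpt1* window holds 5 GC box matches and the *Pcyt1a* window 2 overlapping ones, and neither *Pcyt1b* window holds any. The *Pcyt1a* window 3, which is not shown, holds no GC box and no TCACNCCAC match either, with a GC content of 63.3% and 18 CpG dinucleotides, so the GC box difference between these genes does not hold for all 3 starts. Of all windows, 35.7% hold a GC box match. TCACNCCAC occurs in 1.24% of all windows and in windows of 1 member, *Pcyt1a*. CCAAT occurs in both *Pcyt1b* windows and in 37.4% of all windows. Gene counts do not tell which start was used, and a match of letters is not a bound site.

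Of the phosphotransferases, which complete PC and PE, *Chpt1* (choline phosphotransferase, chromosome 10 from 88452745 to 88504073, minus strand) had the largest absolute tissue difference of the 37 genes. It was at 197, 256 and 231 CPM in WT cerebella and 80.4, 85.5 and 74.5 CPM in WT cortices. Every cerebellum lay above every cortex, a 2.85-fold difference (log2 fold change 1.51, SE 0.099, edgeR adjusted p = 3.6e-07). *Cept1*, which can use choline or ethanolamine, had a log2 fold change of 0.14 (SE 0.082, edgeR adjusted p = 0.18), and *Selenoi*, the ethanolamine phosphotransferase, one of 0.024 (SE 0.066, edgeR adjusted p = 0.77), both with overlapping groups. Of the exon bases of *Cept1*, 24.9% overlap other genes, mainly *Dennd2d* on the opposite strand, and the counting ignored strand.

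*Pemt*, which methylates PE to PC and is known from liver, was low in both tissues, at 2.21 ± 0.679 TPM in WT cerebellum and 2.94 ± 0.224 TPM in WT cortex (SD, n = 3 each). Its groups overlapped (log2 fold change -0.47, SE 0.29, edgeR adjusted p = 0.198). The PS enzymes differed little between tissues. *Ptdss1*, the PS synthase that uses PC, was at 60.9 ± 1.501 TPM and 58.2 ± 1.05 TPM in WT cerebellum and cortex (SD, n = 3 each; log2 fold change 0.0063, edgeR adjusted p = 0.94). *Ptdss2*, which uses PE, had a log2 fold change of 0.27 (SE 0.081, edgeR adjusted p = 0.014). *Pisd*, the mitochondrial PS decarboxylase, had one of -0.17 (SE 0.066, edgeR adjusted p = 0.053). *Pisd* shares 20.9% of its exon bases with other gene models, mainly *Gm20671* on the same strand, and near-identical pseudogene copies exist, so its level is less certain than its error shows.

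None of the genes of CDP-diacylglycerol and PI synthesis passed both thresholds between WT tissues. *Cds1* and *Cds2*, which make CDP-diacylglycerol, had log2 fold changes of 0.24 (SE 0.078, edgeR adjusted p = 0.021) and -0.25 (SE 0.064, edgeR adjusted p = 0.0069), opposite in sign and both without overlap of the groups. *Cdipt* had one of -0.11 (SE 0.076, edgeR adjusted p = 0.26). *Isyna1*, the inositol-3-phosphate synthase that makes inositol from glucose 6-phosphate, had one of -0.14 (SE 0.10, edgeR adjusted p = 0.26) in WT mice.

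Among the genes for cardiolipin, the lipid of the inner mitochondrial membrane, *Lclat1* and *Pgs1* were lower in cerebellum. *Lclat1* (chromosome 17 from 73107985 to 73243368, plus strand), a lysocardiolipin acyltransferase that is also known to act on PI, was at 18.4, 17.4 and 20.4 CPM in WT cerebella and 44.2, 41.4 and 45.8 CPM in WT cortices (log2 fold change -1.22, SE 0.088, edgeR adjusted p = 7.6e-07). *Pgs1*, the phosphatidylglycerophosphate synthase that opens this branch, was at 53.2, 51.0 and 49.9 CPM against 77.9, 84.6 and 89.3 CPM (log2 fold change -0.70, SE 0.071, edgeR adjusted p = 1.1e-05). Neither gene overlapped between the tissues. *Tamm41*, which supplies mitochondrial CDP-diacylglycerol, had a log2 fold change of 0.44 (SE 0.15, edgeR adjusted p = 0.032), and *Ptpmt1*, the phosphatase after *Pgs1*, one of 0.27 (SE 0.068, edgeR adjusted p = 0.0068). *Crls1*, cardiolipin synthase, had one of -0.22 (SE 0.086, edgeR adjusted p = 0.050), and *Taz*, the tafazzin transacylase, one of 0.17 (SE 0.087, edgeR adjusted p = 0.13). *Ptpmt1* shares 52.3% of its exon bases, mainly with *Kbtbd4* on the opposite strand.

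Among the lysophospholipid acyltransferases, the largest differences were in genes for PI and for PE or PS. *Mboat7*, which adds arachidonate to lyso-PI, was at 64.7, 63.4 and 60.3 CPM in WT cerebella and 145, 135 and 145 CPM in WT cortices. That is lower in every cerebellum (log2 fold change -1.17, SE 0.065, edgeR adjusted p = 1.0e-07), the smallest adjusted p among the members. *Mboat1*, an acyltransferase for lyso-PE and lyso-PS, was at 4.28, 3.86 and 3.70 CPM in WT cerebella and 1.86, 1.39 and 1.93 CPM in WT cortices (log2 fold change 1.19, SE 0.22, edgeR adjusted p = 0.00091). *Lpcat1*, a PC acyltransferase, was also lower in cerebellum, with a log2 fold change of -0.58 (SE 0.083, edgeR adjusted p = 0.00017). The other 4 did not pass both thresholds. *Lpcat3*, which adds polyunsaturated chains to PC, had a log2 fold change of 0.38 (SE 0.12, edgeR adjusted p = 0.017), and *Lpcat4* one of -0.25 (SE 0.095, edgeR adjusted p = 0.044). *Lpcat2* and *Mboat2* had log2 fold changes of -0.18 (SE 0.16, edgeR adjusted p = 0.36) and -0.068 (SE 0.092, edgeR adjusted p = 0.55), with overlapping groups. *Lpcat3* shares 10.2% of its exon bases with *Emg1* on the opposite strand.

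Of the phospholipases A2, 3 of 4 differed. *Pla2g16* (chromosome 19 from 7557459 to 7588545, plus strand), a phospholipase and acyltransferase known from fat tissue, was at 79.0, 80.0 and 91.7 CPM in WT cerebella and 40.4, 42.7 and 41.7 CPM in WT cortices (log2 fold change 1.01, SE 0.077, edgeR adjusted p = 1.3e-06). *Pla2g4a*, the calcium-dependent cytosolic enzyme that releases arachidonate, was at 6.83, 6.17 and 7.4 CPM against 3.98, 4.24 and 4.55 CPM (log2 fold change 0.68, SE 0.16, edgeR adjusted p = 0.0043). *Pla2g15*, the lysosomal enzyme, was lower in cerebellum, at 13.1, 15.8 and 13.6 CPM against 24.4, 25.2 and 24.2 CPM (log2 fold change -0.79, SE 0.10, edgeR adjusted p = 8.0e-05). None of these 3 overlapped between the tissues. Oligodendrocyte genes stood higher in the cerebellum too, with 7 of 10 past both thresholds in WT (summed level 11154 to 14520 CPM per WT cerebellum and 7852 to 8143 CPM per WT cortex), and so did those of 3 other lists, with 7 of 10 astrocyte and Bergmann glia genes (median log2 fold change 1.08, with 1, *Slc1a2*, past both thresholds on the lower side), 7 of 10 meningeal fibroblast genes (0.88) and 6 of 6 choroid plexus genes (4.76) past both thresholds on the higher side. All 12 microglia and macrophage genes were lower past both thresholds (-1.16), and of the other non-neuronal lists 1 of 9 endothelial and mural genes was higher and 1 of 8 oligodendrocyte precursor genes higher and 3 lower. The part of these lists in the tissue differences of the members was not tested. *Pla2g6*, the calcium-independent enzyme, had a log2 fold change of -0.29 (SE 0.10, edgeR adjusted p = 0.035). The glycerophosphodiesterases, which split deacylated phospholipids, were both on the lower side in cerebellum. *Gpcpd1* had a log2 fold change of -0.64 (SE 0.10, edgeR adjusted p = 0.00030), past both thresholds, and *Gde1* one of -0.33 (SE 0.068, edgeR adjusted p = 0.0019), under the size threshold.

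The same tissue comparison in *Snx14*-KO mice uses libraries that share none with the WT comparison. There, 11 of the 37 genes passed both thresholds, 3 higher and 8 lower in cerebellum, beside 18.2% and 19.6% of all 18542 genes tested. All 11 were among the 13 genes of the WT comparison and had the same direction, and 34 of the 37 log2 fold changes had the same sign. Of the WT genes, *Mboat1* had a log2 fold change of 0.32 (SE 0.27, edgeR adjusted p = 0.34) in *Snx14*-KO mice, and *Pla2g4a* one of 0.44 (SE 0.17, edgeR adjusted p = 0.054), or 0.51 with 0.048 without *Snx14*-KO cortex replicate 2. The tissue differences of these 2 genes were not shown to differ between genotypes, since the interaction of genotype and tissue was -0.88 for *Mboat1* (edgeR adjusted p = 0.70) and -0.24 for *Pla2g4a* (SE 0.21, edgeR adjusted p = 1.00). *Chpt1* had a log2 fold change of 1.64 (SE 0.083, edgeR adjusted p = 1.6e-07) and *Pla2g16* one of 1.30 (SE 0.14, edgeR adjusted p = 2.7e-05) in *Snx14*-KO mice. *Lpcat1* (-0.53) is near the size threshold and drops under it without *Snx14*-KO cerebellum replicate 1 (-0.45) or *Snx14*-KO cortex replicate 2 (-0.49). *Isyna1* had the widest gap between the comparisons after *Mboat1*, at -0.14 in WT and 0.41 in *Snx14*-KO mice.

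**Figure D2:**
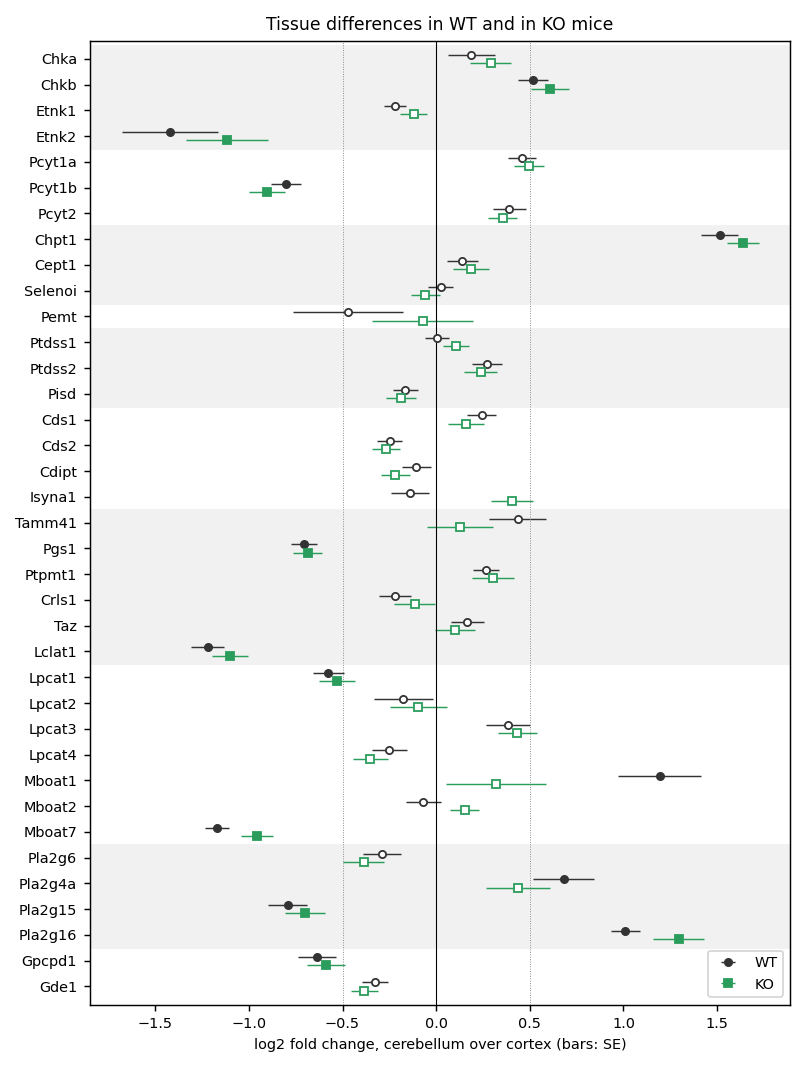
Log2 fold change of cerebellum over cortex (x axis, bars are SE) for each gene in WT mice (black circles) and *Snx14*-KO mice (green squares), with genes in rows by role; filled symbols passed both thresholds and dotted lines mark the size threshold of 0.5. *Chpt1* lies farthest to the right at 1.51 and 1.64, *Etnk2*, *Lclat1* and *Mboat7* farthest to the left, and 11 genes are filled in both genotypes.

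Several steps have 2 enzymes for the same or a closely related reaction, and the share of the pair's TPM held by one of them was compared between the 6 cerebella and 6 cortices for 9 pairs (two-sided exact permutation test with tissue labels exchanged within genotype, 400 arrangements, smallest possible p 0.005, Benjamini-Hochberg adjustment over the 9 pairs). The pairs were chosen with earlier results of these data known, and the shares come from the same libraries as the tissue tests above. *Chpt1* held 59.8% to 65.9% of the *Chpt1* and *Cept1* level in cerebella and 37.3% to 42.6% in cortices, a mean difference of 23.8 percentage points (adjusted p = 0.0113, exact permutation). *Pcyt1b* held 40.2% to 45.2% of the *Pcyt1a* and *Pcyt1b* level in cerebella and 61.1% to 68.1% in cortices, a mean difference of -22.5 points (adjusted p = 0.0113, exact permutation). By TPM, the larger share in each of these 2 pairs belonged to a different gene in each tissue. For *Chpt1* and *Cept1* this rests on the division by gene length, since by CPM *Chpt1* was above *Cept1* in WT cortex too (80.1 against 44.4 CPM). As a share of raw counts the shift was 18.3 points for *Chpt1* and -22.4 points for *Pcyt1b*, with the same adjusted p. At *Cds1* against *Cds2*, the share of *Cds1* was 35.2% to 41.5% in cerebella and 30.2% to 33.0% in cortices (7.202 points, adjusted p = 0.0113, exact permutation), with *Cds2* the larger in both. *Etnk2* held 1.96% to 3.70% of the ethanolamine kinase level in cerebella and 4.08% to 7.03% in cortices (-2.91 points, adjusted p = 0.0113, exact permutation). As a share of raw counts, without division by gene length, its shift was -0.994 points with the same adjusted p.

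The other 5 pairs showed shifts of under 6 points, and in each the ranges of cerebella and cortices overlapped. *Chkb* held 64.7% of the choline kinase level in cerebella and 59.4% in cortices (adjusted p = 0.0257, exact permutation). *Lpcat1* held 70.0% of the *Lpcat1* and *Lpcat2* level against 75.6% (adjusted p = 0.018, exact permutation), and *Ptdss2* held 33.9% of the PS synthase level against 31.0% (adjusted p = 0.0225, exact permutation). *Mboat2* held 88.3% of the *Mboat1* and *Mboat2* level against 92.7% (adjusted p = 0.0338, exact permutation), and *Selenoi* held 27.7% of the *Selenoi* and *Cept1* level against 30.3% (adjusted p = 0.045, exact permutation). With tissue labels exchanged within each mouse, as a replicate block, the adjusted p was 0.0703 for *Lpcat1*, 0.0703 for *Ptdss2* and 0.0938 for *Mboat2* (exact permutation), so these 3 calls were lost, while it was 0.0469 for each of the other 6 pairs. Those 6 pairs were tied at the smallest p that an exchange within 6 mice can give, so this value does not grade them. The call for *Selenoi* was also lost in 10 of the 12 fits that left out a library (adjusted p up to 0.105, exact permutation), and those for *Mboat2* and *Ptdss2* in some of them. By genotype, the mean share of *Mboat2* was 85.5% in cerebellum against 93.4% in cortex in WT and 91.1% against 91.9% in *Snx14*-KO mice, so most of the pooled shift comes from the WT libraries, and whether the shift differs between genotypes was not tested. As a share of raw counts the pooled shift was -1.91 points, with the same adjusted p. Between genotypes, where 3 libraries against 3 cannot give an exact p under 0.10, the share of *Mboat2* was 83.8%, 87.4% and 85.5% in WT cerebella and 89.9%, 92.2% and 91.1% in *Snx14*-KO cerebella, without overlap. In cortices it was 93.4% ± 1.42 in WT and 91.9% ± 2.09 in *Snx14*-KO mice (SD, n = 3), with overlap.

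**Figure D3:**
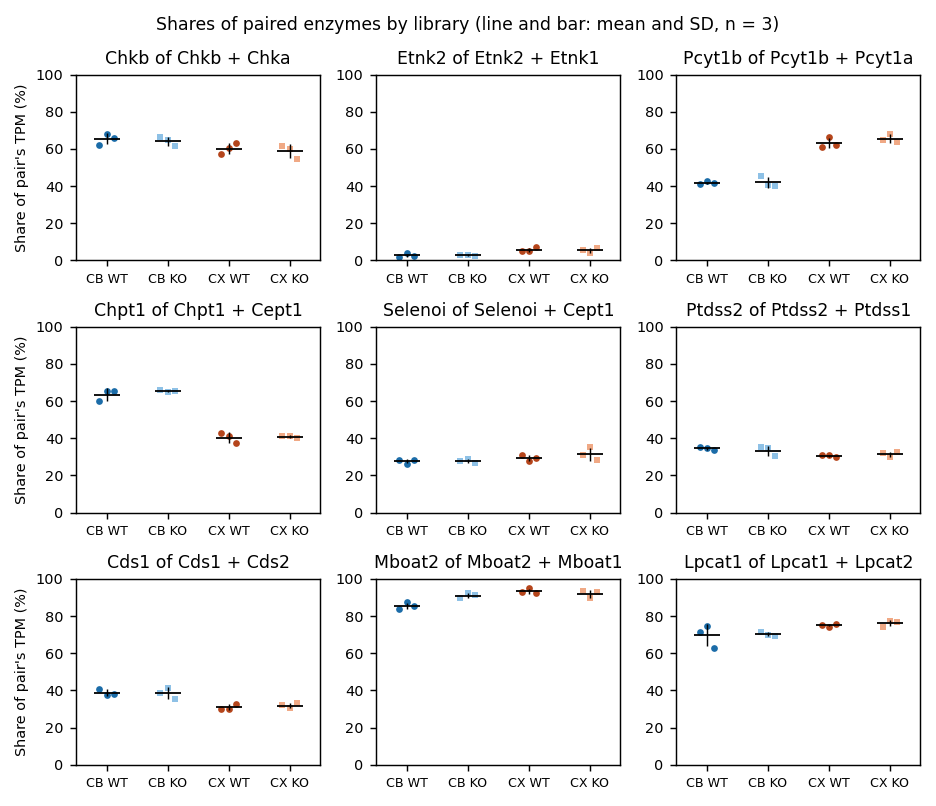
Share of the pair's TPM held by the named gene (y axis, percent from 0 to 100) in each library for 9 enzyme pairs, with the mean and SD of each group of 3 (CB, cerebellum; CX, cortex). *Chpt1* falls from a range of 59.8% to 65.9% in cerebella to 37.3% to 42.6% in cortices and *Pcyt1b* goes the opposite way, while the remaining pairs shift by under 8 points.

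Between *Snx14*-KO and WT cerebella, edgeR called 0 of the 37 genes, and DESeq2 called 1, *Isyna1*. Of all genes, edgeR called 0 (0%) higher and 1 (0.00549%), *Snx14* itself, lower, and DESeq2 called 153 (0.841%) higher and 11 (0.0604%) lower. At an unadjusted p under 0.05, 1 member was higher (*Isyna1*) and 1 lower (*Mboat1*), beside 5.78% and 2.37% of the 18201 genes tested. The *Snx14*-KO libraries lay above all WT libraries for 1 member, *Isyna1*, and below them for 3, *Mboat1*, *Pla2g4a* and *Pla2g16*, beside 6.21% and 6.32% of all genes. The median log2 fold change of the members was 0.043, and it was 0.0105 without WT replicate 1 and at most 0.0344 without any other single library, beside a median of -0.00062 over all genes tested. Of the members, 24 were above 0 and 13 below, so 64.86% were above 0, beside 49.85% of all genes tested. Whether the members lean to the higher side as a set was not tested. Apart from *Isyna1*, *Mboat1* and *Pemt*, the log2 fold changes lay between -0.19 (*Pla2g4a*) and 0.19 (*Mboat2*).

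*Isyna1* (ENSMUSG00000019139.10, chromosome 8 from 70594373 to 70597290, plus strand, with no exon shared with another gene) was at 19.8, 22.0 and 19.95 CPM in WT cerebella and at 33.5, 30.3 and 34.7 CPM in *Snx14*-KO cerebella. Every *Snx14*-KO cerebellum lay above every WT cerebellum and above every cortex of either genotype, of which the highest was at 28.1 CPM. The difference was 1.61-fold (log2 fold change 0.69, SE 0.094, 95% interval 0.48 to 0.90), with an unadjusted p of 4.0e-05 and an edgeR adjusted p of 0.063, so it missed the threshold after adjustment over all genes. In 8 of 12 alternative fits it missed the threshold too, with an adjusted p of 0.067 with RLE size factors, 0.072 with a CPM filter and 0.24 with a replicate block among them. In the other 4 it passed, with an adjusted p of 3.9e-05 by DESeq2, 0.00038 when all genes with a count were tested by the quasi-likelihood test, 0.020 in 1 fit over the 12 libraries, and 0.010 without *Snx14*-KO cerebellum replicate 2. Without any other single cerebellum the adjusted p was 0.094 to 0.38, and the log2 fold change was 0.63 to 0.74 over all 6. In cortex, *Isyna1* was at 25.2, 21.0 and 22.1 CPM in WT and 25.1, 28.1 and 21.6 CPM in *Snx14*-KO libraries, with overlapping groups (log2 fold change 0.13, 95% interval -0.12 to 0.38, edgeR adjusted p = 0.996).

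The promoter window of *Isyna1* at chr8:70594231-70594530 (plus strand, RefSeq, GRCm38.p6) is shown because this gene has the smallest p of the members between genotypes. Capitals mark its single match to CCAAT, read on the opposite strand and starting at position -159 relative to the annotated start.
Isyna1: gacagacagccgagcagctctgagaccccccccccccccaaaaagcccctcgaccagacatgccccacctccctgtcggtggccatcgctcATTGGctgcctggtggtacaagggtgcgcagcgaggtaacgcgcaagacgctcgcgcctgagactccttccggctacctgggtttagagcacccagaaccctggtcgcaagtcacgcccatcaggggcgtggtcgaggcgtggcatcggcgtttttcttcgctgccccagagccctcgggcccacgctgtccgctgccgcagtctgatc

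This window holds no match to the GC box or the sterol element core on either strand, nor to the TATA box (letters TATAAA) or the E-box (letters CACGTG), has a GC content of 66.0% and 24 CpG dinucleotides.

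Marker lists of other cells leaned to the higher or the lower side between the *Snx14*-KO and WT cerebella in which *Isyna1* was compared, but edgeR called no gene of any list. All 10 meningeal fibroblast genes were on the higher side in *Snx14*-KO cerebella (median log2 fold change 1.15, summed level 159 to 329 CPM per WT and 434 to 461 CPM per *Snx14*-KO cerebellum), and so were all 12 microglia and macrophage genes (median 0.96, summed level 222, 280 and 220 CPM in WT and 265, 290 and 670 CPM in *Snx14*-KO replicates 1, 2 and 3, of which the last stands apart). All 10 granule cell genes were on the lower side (median -0.27, summed level 3598 to 4365 CPM per WT and 2946 to 3856 CPM per *Snx14*-KO cerebellum). All 6 choroid plexus genes were on the lower side too (median -0.74), with a summed level that varied from 80.8 to 7328 CPM among the WT and from 960 to 3174 CPM among the *Snx14*-KO cerebella. No gene of these 4 lists was at 0 in any cerebellum, and edgeR called none of them singly. Of the other lists, 9 of 10 Purkinje cell and 10 of 10 oligodendrocyte genes were on the lower side, and 8 of 10 astrocyte and Bergmann glia, 8 of 8 oligodendrocyte precursor, 6 of 9 endothelial and mural and 4 of 6 tested cortical neuron genes on the higher side. *Snx14*-KO cerebellum replicates 1 and 3 also had 481 and 457 CPM over the cortical neuron genes, against 212 to 233 CPM in the other 4 cerebella. The part of these differences in the *Isyna1* value was not tested.

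*Mboat1* (chromosome 13 from 30136489 to 30246717, plus strand) was at 4.28, 3.86 and 3.70 CPM in WT cerebella and at 2.91, 2.15 and 2.76 CPM in *Snx14*-KO cerebella, from 67 to 77 and 39 to 61 read pairs. Every *Snx14*-KO library lay below every WT library, with a log2 fold change of -0.58 (SE 0.21, 95% interval -1.05 to -0.11), an unadjusted p of 0.021 and an edgeR adjusted p of 0.47. In cortex it was at 1.86, 1.39 and 1.93 CPM in WT and 1.75, 2.63 and 1.91 CPM in *Snx14*-KO libraries, and the groups overlapped. At this depth the cerebellar difference was not past the threshold in any of the 12 alternative fits, with adjusted p-values from 0.35 to 0.99.

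**Figure D4:**
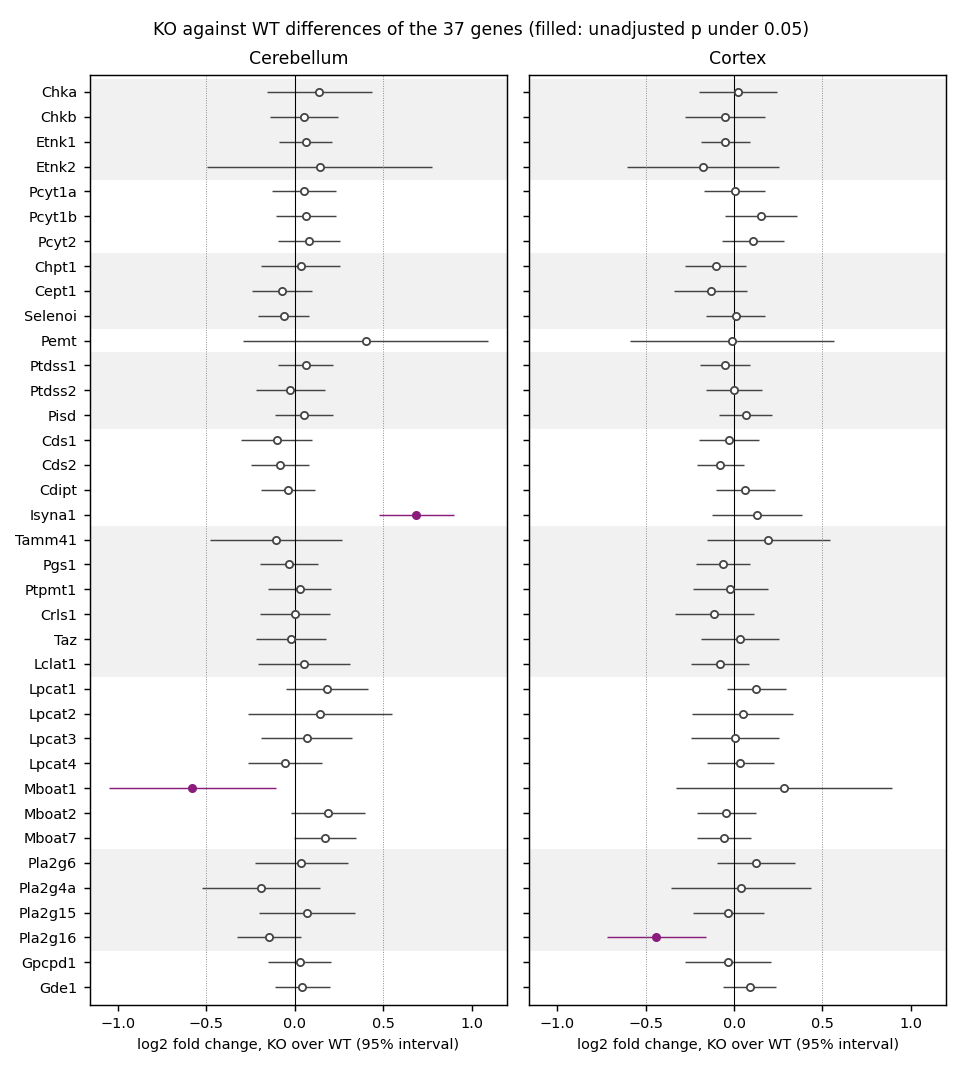
Log2 fold change of *Snx14*-KO over WT (x axis, bars are 95% intervals) for each gene in cerebellum (left) and cortex (right), with genes in rows by role and dotted lines at the size threshold of 0.5; filled symbols have an unadjusted p under 0.05. *Isyna1* at 0.69 and *Mboat1* at -0.58 stand out in cerebellum and *Pla2g16* at -0.44 in cortex, and no gene passed the adjusted threshold in these fits.

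Between *Snx14*-KO and WT cortices, edgeR and DESeq2 each called 0 of the 37 genes, and 1 had an unadjusted p under 0.05, on the lower side. In the whole table of 18255 genes, edgeR called 0% higher and 0.00548% lower and DESeq2 0.0164% and 0.0329%, with 2.24% and 2.26% at an unadjusted p under 0.05. *Pisd* and *Pla2g6* lay above without overlap and *Pla2g16* below, beside 4.57% and 4.67% of all genes. The median log2 fold change of the members was -0.00062, and it was -0.0300 to -0.00066 without a single library, beside 8.2e-05 over all genes tested. Of the members, 18 were above 0 and 19 below, so 48.65% were above 0, beside 50.03% of all genes tested. *Pla2g16* was at 40.4, 42.7 and 41.7 CPM in WT and at 32.4, 23.6 and 36.3 CPM in *Snx14*-KO cortices. *Snx14*-KO replicate 2 was the lowest of the 6, and all *Snx14*-KO libraries lay below all WT libraries. The log2 fold change was -0.44 (SE 0.13, 95% interval -0.72 to -0.16), with an unadjusted p of 0.0051 and an edgeR adjusted p of 0.99, and it was -0.28 without *Snx14*-KO replicate 2. When all genes with a count were tested its adjusted p was 0.0020, still under the size threshold.

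All 10 oligodendrocyte genes were on the lower side in *Snx14*-KO cortices (median log2 fold change -0.30), though edgeR called none of them. Their summed level was 7852 to 8143 CPM per WT cortex and 7258, 5570 and 7959 CPM in *Snx14*-KO replicates 1, 2 and 3. Replicate 3 thus lay within the WT range of this sum, while its *Pla2g16* level of 36.3 CPM lay below all WT cortices. *Snx14*-KO cortex replicate 2 had 351 CPM over the meningeal fibroblast genes, against 86.0 to 135 CPM in the other 5 cortices. All 10 meningeal fibroblast and all 9 endothelial and mural genes were on the higher side in the *Snx14*-KO cortices (medians 0.67 and 0.20), as were 9 of 12 microglia and macrophage (0.096) and 8 of 10 astrocyte and Bergmann glia genes (0.057). All 4 tested choroid plexus genes were on the lower side (median -1.15), and no list gene was called. At an unadjusted p under 0.05 (edgeR), 8 of 10 oligodendrocyte and 2 choroid plexus genes were lower and 5 of 10 meningeal fibroblast genes higher. Every other list had at most 2 such genes. Of all genes, 2.26% were lower and 2.24% higher by this rule. Of the neuronal and precursor lists, 7 of 9 granule cell, 5 of 9 Purkinje cell, 5 of 10 cortical neuron and 6 of 8 oligodendrocyte precursor genes were on the higher side. The part of these differences in the *Pla2g16* value was not tested. In cerebellum, *Pla2g16* was at 79.0, 80.0 and 91.7 CPM in WT and 72.9, 75.9 and 76.1 CPM in *Snx14*-KO libraries, again without overlap (log2 fold change -0.14, 95% interval -0.32 to 0.037, edgeR adjusted p = 0.75). Among WT cerebella, replicate 1 had the lowest *Pla2g16* level and the highest oligodendrocyte sum (14520 CPM), and replicate 3 the highest level and the lowest sum (11154 CPM). Among *Snx14*-KO cerebella, replicate 1 had the lowest of both (72.9 and 11365 CPM).

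The genes that make or use PE are given singly because the study drew attention to PE lipids in the cortex of these mice at a later age. In cortex, the log2 fold change of *Snx14*-KO over WT was -0.049 for *Etnk1* (95% interval -0.19 to 0.089), 0.11 for *Pcyt2* (-0.070 to 0.28) and 0.0089 for *Selenoi* (-0.16 to 0.17), the kinase, cytidylyl-transferase and phosphotransferase of the ethanolamine branch. It was -0.13 for *Cept1* (-0.34 to 0.074). For the PS route it was 0.065 for *Pisd* (-0.084 to 0.22), -0.051 for *Ptdss1* (-0.19 to 0.090) and -0.00062 for *Ptdss2* (-0.16 to 0.16). These 7 intervals leave out a difference as large as the size threshold of 0.5 in either direction. The low genes were less well bounded, with -0.18 for *Etnk2* (-0.61 to 0.26) and -0.010 for *Pemt* (-0.59 to 0.57). In cerebellum, the same 7 genes had log2 fold changes from -0.073 (*Cept1*) to 0.082 (*Pcyt2*) and intervals within -0.24 to 0.26, while *Etnk2* was at 0.14 (-0.49 to 0.78) and *Pemt* at 0.40 (-0.29 to 1.09). These low genes moved with single libraries, *Pemt* to 0.18 without WT cerebellum replicate 3 and 0.66 without WT cerebellum replicate 1, and *Etnk2* to -0.045 without WT cerebellum replicate 1 and 0.46 without WT cerebellum replicate 2.

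Whether the genotype difference itself differed between cerebellum and cortex was tested as an interaction over the 12 libraries. By edgeR, 0 of the 37 members passed an adjusted p of 0.05, beside 0 of 19380 genes (0%), and 2 members had an unadjusted p under 0.05, beside 1100 genes (5.68%). DESeq2 called 0 members, beside 0.181% of all genes higher and 0.00516% lower. *Isyna1* had a larger log2 fold change in cerebellum than in cortex by 0.54 (SE 0.15, 95% interval 0.22 to 0.87, unadjusted p 0.0030, edgeR adjusted p = 0.43). Without both libraries of *Snx14*-KO mouse 2 the difference was 0.69 with an edgeR adjusted p of 0.046, and without those of mouse 3 it was 0.41 with 1.00. *Mboat1* had a lower log2 fold change in cerebellum than in cortex by 0.88 (interaction -0.88, SE 0.33, 95% interval -1.58 to -0.17, unadjusted p 0.018, edgeR adjusted p = 0.70).

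**Figure D5:**
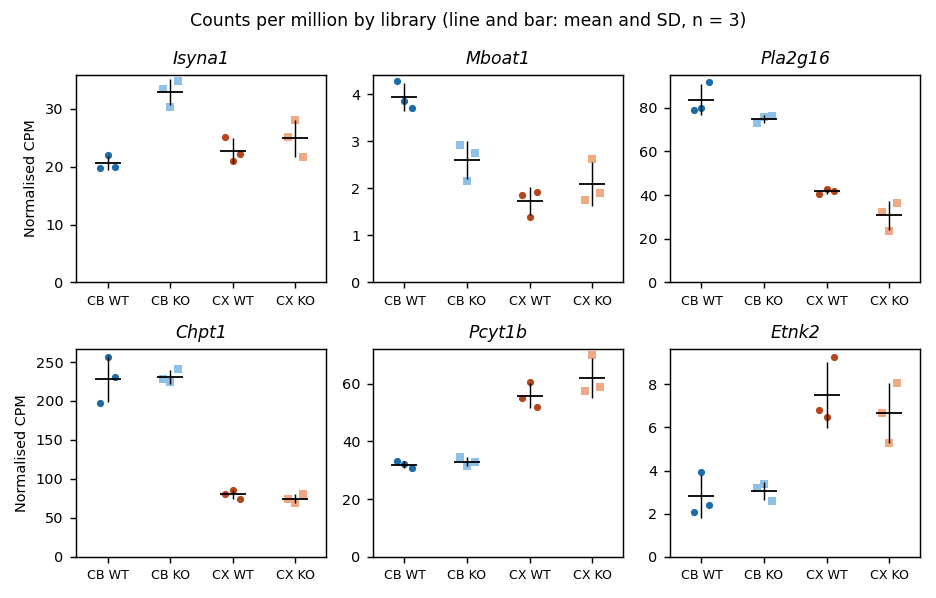
Normalised CPM (y axis from 0) of *Isyna1*, *Mboat1*, *Pla2g16*, *Chpt1*, *Pcyt1b* and *Etnk2* in each library, with the mean and SD of each group of 3 (CB, cerebellum; CX, cortex; circles WT, squares *Snx14*-KO). *Isyna1* is at 30.3 to 34.7 CPM in *Snx14*-KO cerebella and at most 28.1 CPM elsewhere, whereas *Chpt1*, *Pcyt1b* and *Etnk2* separate the tissues with overlapping genotypes.

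Of 94 other genes of phospholipid metabolism and transport, 91 were tested in each comparison of 2 groups and 92 in the interaction. Between WT cerebellum and cortex, 25 were higher and 12 lower past both thresholds, beside 19.0% and 21.4% of all genes. The 5 with the smallest p were *Pla2g7*, the platelet-activating factor acetylhydrolase (log2 fold change 1.52), the phospholipases *Abhd16a* (1.13), which acts on PS, and *Abhd3* (0.92), the PI transfer protein *Pitpnc1* (-1.20) and the flippase *Atp8a1* (-0.88). In *Snx14*-KO mice the counts were 25 and 10, beside 18.2% and 19.6% of all genes, led by the inositol transporter *Slc2a13* (-1.46), *Pla2g7* (1.66), *Abhd16a* (0.87), the scramblase *Plscr4* (2.31) and *Atp8a1* (-0.87). By list, the WT counts were 5 higher and 1 lower of 19 for phosphatidic acid and diacylglycerol supply, 1 and 0 of 9 for ether lipids, 8 and 3 of 24 for other phospholipases, 7 and 6 of 27 for transfer and scrambling, and 4 and 2 of 12 for choline, ethanolamine and inositol supply. Between genotypes, edgeR called 0 of the 91 in either tissue. At an unadjusted p under 0.05, 5 lay on the higher side and 2 on the lower side in the cerebella, beside 5.78% and 2.37% of all genes. They were led by the lysophosphatidylcholine transporter *Mfsd2a* with a log2 fold change of 0.55 (SE 0.13, edgeR adjusted p = 0.23), then the phosphatidate phosphatase *Plpp3* (0.23), the scramblase *Ano6* (0.33), *Pitpnc1* (0.27) and the glycerophosphate acyltransferase *Gpam* (0.24). The 2 on the lower side were the phosphatase of phosphocholine and phosphoethanolamine *Phospho1* (-0.24) and the inositol transporter *Slc5a11* (-0.85, SE 0.37, edgeR adjusted p = 0.60). Both are in the list for choline, ethanolamine and inositol supply, of whose 12 tested genes 4 were above 0 and 8 below. In cortex, 0 lay on the higher side and 2 on the lower, beside 2.24% and 2.26% of all genes, *Pitpnc1* (-0.25) and *Far1* (-0.18), and in the interaction *Pitpnc1* had the smallest p (0.51, SE 0.13, edgeR adjusted p = 0.41), followed by *Xkr8* (-0.64), *Abhd16a* (-0.26) and *Impa2* (0.47).

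As a shared feature that did not enter the choice of genes, the promoter windows were described for the 32 members found in the RefSeq table, 43 windows in all, *Pla2g16* under its current symbol *Plaat3*. *Pcyt2*, *Ptdss1*, *Cdipt*, *Tamm41* and *Gpcpd1* had no entry. Their median GC content was 62.0%, beside 52.7% over all windows, and the median ratio of observed to expected CpG was 0.74, beside 0.38. The GC box letters GGGCGG were in windows of 26 of the 32 genes (67.4% of their windows, beside 35.7% of all windows), and CCAAT in those of 19 (48.8%, beside 37.4%). TATAAA was in 6.98% of the members' windows and 13.6% of all, CACGTG in 2.33% and 7.15%, and TCACNCCAC in 4.65% and 1.24%, the 2 overlapping windows of *Pcyt1a*. Genes differ in their number of windows, and the windows of 1 gene can overlap. The set of all windows was not limited to genes detected in these libraries or matched for GC content. Whether the shares of the members differ from those of such genes was not tested.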

How the data were processed

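RNA of the cerebellum and cerebral cortex of 6 mice was sequenced in 12 libraries. Read pairs were trimmed, aligned by STAR to GRCm38 and assigned to genes with featureCounts (Subread 2.0.1), and the authors deposited these raw counts without normalization. Per the file headers, strand was ignored, a pair lying over several genes was counted for each, and pairs mapping to several places were dropped. The labels' library kit and the strand-specific protocol in the study's methods are not the same, and strand was not used here. Left out were 26248 numbered features without a gene name (0.0506% to 0.0632% of the gene counts) and 97 spike-in features at 0 counts.

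edgeR 4.0.16 (R 4.3.3, limma 3.58.1) gave TMM-normalised CPM over 12 libraries and quasi-likelihood tests over all genes kept by filterByExpr, adjusted by Benjamini-Hochberg. SE is the absolute log2 fold change over the square root of F. TPM came from the counts and the gene lengths in the files. DESeq2 1.42.0, other size factors, other filters, a replicate block, 1 fit over 12 libraries and leaving out libraries were alternatives. The tests were first tried on simulated counts. No libraries were identical, and replicates differed beyond counting noise, with a chi-square per gene of 6.00 to 21.2. Intervals of the fits are for the mean difference between groups, with an error estimated from the spread between libraries of a group.

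The labels give 1 mouse number to a cerebellum and a cortex of the same genotype, which pairs them by animal. Deviations of same-mouse libraries from their group means correlated at 0.065 to 0.15 in WT and at 0.011 to 0.32 in *Snx14*-KO mice. *Snx14*-KO and WT mice share only numbers.

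All 37 genes were named with their WT tissue difference. Between genotypes a gene was given singly if called, if its unadjusted p was under 0.05 or if it makes or uses PE, and in the interaction if its unadjusted p was under 0.05. Other pathway genes were named up to 5 per comparison by smallest p. *Slc5a11*, *Phospho1*, *Slc1a2* and the genes named for groups without overlap, were named after their values were seen. The members, lists, pairs and marker genes were chosen with earlier results of these data known. The 1-year-old mice were not analysed here.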

Additional observations from a re-analysis of the deposited data

Results flagged for a closer look

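For *Mboat1*, the 3 *Snx14*-KO cerebella lay below the WT cerebellar mean, by -0.43, -0.85 and -0.50 on the log2 CPM scale, and the 3 *Snx14*-KO cortices above the WT cortical mean, by 0.016, 0.58 and 0.13. The mean deviations were -0.59 and 0.24, and the cortical one rests on replicate 2, while replicate 1 is nearly at the WT mean and overlaps the WT cortices. The interaction was -0.88 (SE 0.33, unadjusted p 0.018, edgeR adjusted p = 0.70), and it was -0.68 without *Snx14*-KO cortex replicate 2. For *Cdipt*, the PI synthase, the signs were also opposite, but most libraries hardly differed from the WT mean, at -0.0033, -0.014 and -0.14 in cerebellum and 0.13, 0.032 and 0.025 in cortex. The means of -0.052 and 0.064 rest on cerebellum replicate 3 and cortex replicate 1, and the interaction was -0.12 (SE 0.11, unadjusted p 0.29, edgeR adjusted p = 1.00). Groups of 3 were not searched for outlying libraries.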

How the results depend on the processing

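Between *Snx14*-KO and WT cerebella, the count of members past both thresholds was 1 (*Isyna1*) in place of 0 by DESeq2, with all genes with a count and with 1 fit over the 12 libraries. It was 0 to 1 with a library left out, the 1 being *Isyna1* without *Snx14*-KO replicate 2. The adjusted p of *Isyna1* ranged from 3.9e-05 to 0.38 over the 12 alternatives, with a log2 fold change of 0.63 to 0.74. In the interaction the count was 1 in place of 0 (*Isyna1*) without both libraries of *Snx14*-KO mouse 2. The median member log2 fold change in cerebellum, 0.043, was 0.0319 with RLE size factors, 0.0319 by DESeq2, 0.0288 with 1 fit and 0.0105 to 0.0344 with a library left out, and in cortex it was -0.0300 to -0.00066 with a library left out.

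Of all genes, edgeR called 0 higher and 1 lower between the cerebella, DESeq2 153 and 11, edgeR with all genes with a count 329 and 18, 1 fit over 12 libraries 43 and 2, and without *Snx14*-KO replicate 2 it was 244 and 10. Without WT replicate 2 it was 9 and 1. Between cortices, DESeq2 called 3 and 6 and edgeR with all genes with a count 85 and 64. In the interaction, DESeq2 called 35 and 1, edgeR with all genes with a count 373 and 45, without *Snx14*-KO cerebellum replicate 2 it was 251 and 6, and without both libraries of that mouse 242 and 7.

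With the replicate block, which pairs tissues by mouse, the differences of *Ptdss2* (2.98 points), *Mboat2* (-4.37) and *Lpcat1* (-5.67) were no longer past the threshold, and the block changed no other call (13, 11 and 0 members in the tissue comparisons and the interaction). With the number as a block between genotypes, which pairs nothing by the labels (correlations -0.111 to 0.0683), 0 members were called and the adjusted p of *Isyna1* was 0.24. With a library left out, the difference was -3.13 to -1.63 points for *Selenoi*, 2.72 to 3.73 for *Ptdss2* and -5.14 to -3.47 for *Mboat2*. *Ptdss2* lost its call without WT cerebellum replicate 1 and *Mboat2* without WT cerebellum replicate 1 or 3 or *Snx14*-KO cortex replicate 1 or 3.

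Members near 0 changed sign. *Ptdss1* between WT tissues was 0.0063 and became -0.0038 with RLE size factors, -0.0038 by DESeq2 and -0.0013 with all genes with a count. With a library left out, *Ptdss1* was -0.0206 to 0.0509 and *Selenoi* -0.0151 to 0.0503 between WT tissues. Between *Snx14*-KO tissues, *Tamm41* was -0.0442 to 0.222, *Lpcat2* -0.177 to 0.0174, *Selenoi* -0.0978 to 0.0059 and *Pemt* -0.226 to 0.102. Between cerebella, *Etnk2* was -0.0446 to 0.461 and *Ptdss2* -0.0999 to 0.0321, and between cortices *Pemt* was -0.178 to 0.139, *Selenoi* -0.0616 to 0.0481, *Ptdss2* -0.0282 to 0.0299 and *Etnk2* -0.332 to 0.00069. Between WT tissues the count of members called was 12 to 14 with a library left out (*Chkb* lost without WT cortex replicate 3, *Pcyt1a* gained without WT cortex replicate 1) and 11 to 12 between *Snx14*-KO tissues. Members' own values kept their direction and their side of the thresholds in 433 of 444 alternatives between WT tissues and 434 of 444 between *Snx14*-KO tissues. The cause of these changes was not tested. *Etnk2*, *Pemt*, *Mboat1*, *Pla2g4a* and *Tamm41* have the lowest levels, and counting error and the spread between mice were not separated for them.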
